A study of Mus musculus with 36 samples.

Results

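The genes described here encode regulators of the macrophage lineage: the transcription factors PU.1 (*Spi1*), C/EBPα (*Cebpa*), C/EBPβ (*Cebpb*), c-MAF (*Maf*), IRF8 (*Irf8*), LXRα (*Nr1h3*), PPARγ (*Pparg*) and MITF (*Mitf*), and the receptor for macrophage colony-stimulating factor (*Csf1r*). They are the rows of the count table whose gene name is on this list, and all 9 were found among 24781 rows. PU.1 binds widely across the genome of myeloid cells and is needed for macrophages to form. It acts together with C/EBPα and IRF8 in progenitors and monocytes, and its targets include *Csf1r*, the receptor through which M-CSF and IL-34 keep macrophages alive. C/EBPβ supports monocyte survival and the inflammatory genes of activated macrophages. c-MAF belongs to resident and IL-10-producing macrophages, the nuclear receptors LXRα and PPARγ to cholesterol and lipid handling, and MITF to lysosomal genes and osteoclasts.

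The mice carried tumours of MC38, a colon adenocarcinoma line, for 7 days. Digital RNA sequencing, in which each RNA molecule receives a barcode at reverse transcription so that molecules and not their PCR copies are counted, was performed on 100 sorted cells per library. Tumour-associated macrophages (TAMs, CD45+CD11b+F4/80 high) and CD8+ T cells (CD45+TCRβ+CD8+) were each taken from 3 groups of mice, with 6 libraries per group and 36 in all. WT mice formed the first group, *muMt*-/- mice, in which mature B cells are missing, the second, and *muMt*-/- mice implanted with a pellet that releases GABA the third. Each library came from a different mouse within its cell type. The labels give the treatment of the first 2 groups as none, whereas the study's methods describe placebo pellets. The *muMt*-/- mice were on C57BL/6J, the WT mice were C57BL/6J or C57BL/6N, and adult mice of both sexes were used, without a record of sex, age or substrain for each library, so that substrain and genotype cannot be told apart. The mutation is in the germ line, so that every cell of the host carried it, and the pellet acted on the whole mouse. *Ighm*, the mutated gene, was not analysed here.

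The depth of TAM libraries ranged from 206394 to 304100 molecules for WT (median 242756). It was 100254 to 253608 for *muMt*-/- mice, with a median of 149960, and 151856 to 262606 with GABA, with a median of 192775. CD8+ T cell libraries were shallower, with 22896 to 98015 molecules and medians of 42066 for WT, 67122 for *muMt*-/- and 80283 for GABA-treated mice. The cell labels were checked on marker genes. All 16 macrophage markers were tested and higher in WT TAMs than in WT CD8+ T cells, and all 12 T cell markers were higher in the T cells. T cell markers summed to 0 to 51.4 CPM (molecules per 1000000 in the library) in the TAM libraries. B cell markers summed to 0 to 39.9 CPM in TAMs, and *Cd79a*, *Pax5* and *Blk* were at 0 in all 3 TAM groups. *Itgam* and *Adgre1*, which encode CD11b and F4/80, were used to sort the TAMs. In these pooled cells, fewer cells of a type and less RNA per cell cannot be told apart. The TAM library of GABA replicate 1 stood apart from its group, with a mean Pearson r of 0.751 to the other 5 libraries, which had 0.847 to 0.861.

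*Csf1r*, *Irf8*, *Cebpb*, *Maf* and *Spi1* were detected in every TAM library, with between 19 and 267 molecules of each. *Cebpa* gave 3 to 34 molecules per library and *Mitf* 2 to 17. *Nr1h3* and *Pparg* were at the edge of detection. *Nr1h3* had 21 molecules in 14 of the 18 TAM libraries, and *Pparg* 7 molecules in 6 of them. No *Pparg* molecule was found among the 987468 molecules of the 6 *muMt*-/- TAM libraries, which allows up to 3.04 CPM. Set per kilobase of the longest protein-coding transcript in GENCODE M21, the level in WT TAMs was 243 ± 30.6 CPM per kilobase for *Cebpb* (SD, n = 6), 198 ± 28.2 for *Irf8*, 173 ± 15.6 for *Csf1r* and 129 ± 22.6 for *Spi1*. On the same scale *Maf* had 42.7 ± 3.74, *Cebpa* 34.7 ± 8.38, *Mitf* 5.69 ± 1.24, *Nr1h3* 3.0 ± 2.22 and *Pparg* 1.31 ± 1.02. The libraries of neighbours in this order overlapped, except between *Spi1* and *Maf* and between *Cebpa* and *Mitf*. The order depends on the division by length. In CPM without it, the means in WT TAMs were 815 for *Csf1r*, 563 for *Irf8*, 365 for *Cebpb*, 272 for *Maf* and 262 for *Spi1*. On that scale the libraries of *Maf* (246 to 307) and *Spi1* (182 to 311) overlapped. The transcript used for *Maf* (6360 bases) is longer than its RefSeq gene, so that its level per kilobase and its overlap with *Cebpa* on that scale depend on the annotation. The paralogues *Cebpb* and *Cebpa* did not overlap, at 209 to 295 and 28.6 to 48.0 CPM per kilobase.

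In mm10, *Spi1* lies at chr2:91082374-91115759 and *Nr1h3* at chr2:91184061-91202829, *Cebpb* at chr2:167688915-167690432, *Mitf* at chr6:97807002-98021360, *Pparg* at chr6:115360879-115490404, *Maf* at chr8:115703253-115706894, *Irf8* at chr8:120736358-120756694 and *Csf1r* at chr18:61105572-61131139 (RefSeq, GRCm38.p6). *Cebpa* lies at chr7:35119293-35121928. Exons of *Cebpb* and *Csf1r* share 312 and 873 bases with exons of *Tmem189* and *Hmgxb3* on the other strand, and whether the authors' counting used the strand is not given in the sources used here. These neighbours had 214 and 56 molecules in all 18 TAM libraries, against 1469 for *Cebpb* and 2783 for *Csf1r*.

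The first comparison asks what the lack of B cells does in TAMs. It was tested over all genes with edgeR's quasi-likelihood test, and a gene was called at a Benjamini-Hochberg adjusted p under 0.05. Values are normalized numbers of molecules, that is counts divided by the library's size factor, given as lowest, median and highest of 6 libraries. *Csf1r* had 130, 154 and 168 in WT TAMs and 92.0, 144 and 175 in *muMt*-/- TAMs. The WT libraries lay inside the wider range of the *muMt*-/- libraries. The log2 fold change was −0.16 (95% interval −0.50 to 0.18, adjusted p = 0.731). *Spi1* had 34.1, 49.6 and 57.6 in WT and 34.1, 41.4 and 57.5 in *muMt*-/- TAMs, and the ranges coincided. Its log2 fold change was −0.23 (−0.58 to 0.13, adjusted p = 0.605). *Cebpa* had 13.8, 14.7 and 24.0 in WT and 10.9, 15.5 and 20.7 in *muMt*-/- TAMs, with a log2 fold change of −0.18 (−0.67 to 0.30, adjusted p = 0.801). The intervals of these 3 genes leave out a change of 1 on the log2 scale in either direction.

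*Irf8*, which directs monocyte and dendritic cell fate and is induced by interferon-γ, had 86.4, 102 and 133 in WT TAMs and 117, 156 and 169 in *muMt*-/- TAMs. Of the 6 *muMt*-/- libraries, 5 were above the highest WT library. The log2 fold change was 0.50 (0.18 to 0.83), and the adjusted p of 0.0873 missed the threshold. *Cebpb* had 58.8, 64.7 and 84.7 in WT and 50.1, 98.6 and 105 in *muMt*-/- TAMs. Again 5 of 6 *muMt*-/- libraries were above every WT library, and replicate 5 was below them all. Its log2 fold change was 0.38 (0.04 to 0.73, adjusted p = 0.266). *Mitf* had 3.14, 5.67 and 5.97 in WT and 2.49, 10.3 and 15.7 in *muMt*-/- TAMs, from 2 to 17 molecules per library. All but 1 of the *muMt*-/- libraries were above the highest WT library, and the log2 fold change was 0.92 (0.27 to 1.57, adjusted p = 0.125). For such counts of libraries outside the range of another group, here and below, the share of all genes is not given. *Maf* had 46.0, 49.5 and 56.0 in WT and 47.0, 59.6 and 76.1 in *muMt*-/- TAMs, with a log2 fold change of 0.25 (−0.07 to 0.57, adjusted p = 0.498). *Nr1h3* had 9 and 5 molecules in the 2 groups and an interval from −1.73 to 1.33, so that no difference was detectable at this depth.

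Of the 9 genes, 8 were tested in TAMs and 0 were called between *muMt*-/- and WT mice, where 194 of 9469 tested genes were called (2.05%). *Pparg* did not pass the filter on low values. At an unadjusted p under 0.05 there were 3 of the 8, *Irf8*, *Cebpb* and *Mitf*, beside 14.9% of all genes. The median log2 fold change of the 8 members was 0.04, against −0.05 over all genes. DESeq2 called 1 of the members (*Irf8*, adjusted p = 0.0237) and 8.27% of the genes to which it gave an adjusted p. *Irf8* was also called with the filter of filterByExpr (adjusted p = 0.0400) and without the TAM library of GABA replicate 1 (adjusted p = 0.0291), and *Mitf* without *muMt*-/- replicate 2 (adjusted p = 0.0453). With the depth of the library as a covariate, the log2 fold change of *Irf8* was 0.26 (adjusted p = 0.731), that of *Cebpb* 0.23, of *Maf* 0.21, of *Cebpa* −0.02, of *Spi1* −0.18 and of *Csf1r* −0.14, while *Mitf* stayed at 0.96. The *muMt*-/- TAM libraries were the shallower ones, and the part of depth in these values was not tested beyond this fit.

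**Figure D1:**
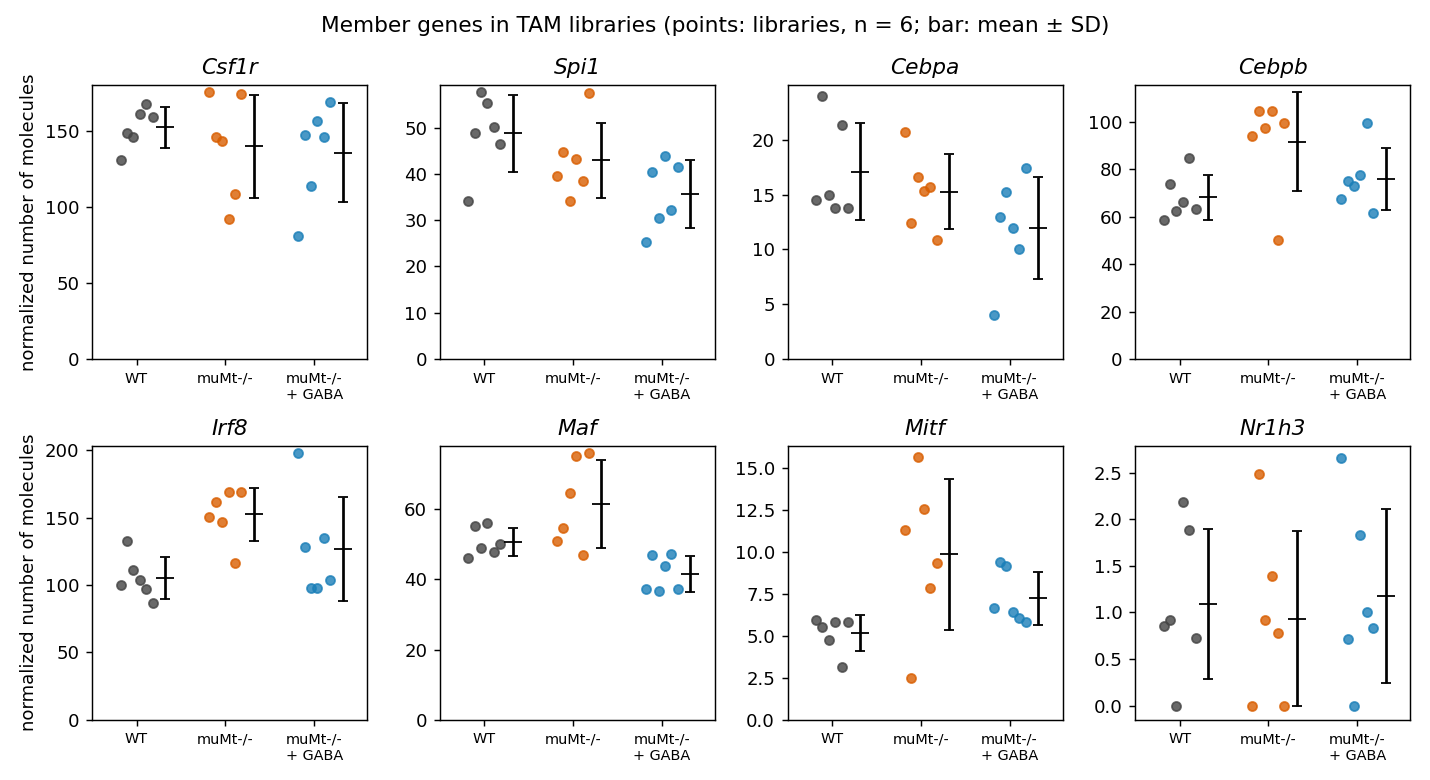
Normalized number of molecules (y axis) of 8 member genes in each TAM library, for WT, *muMt*-/- and GABA-treated *muMt*-/- mice (points, n = 6 per group; bars, mean ± SD). *Irf8*, *Cebpb* and *Mitf* each had 5 of 6 *muMt*-/- libraries above all WT libraries. The remaining library lay inside the WT range for *Irf8* and below it for *Cebpb* and *Mitf*. For *Csf1r* and *Spi1* most libraries of the 2 groups lay in the same range.

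The second comparison asks what the GABA pellet does in TAMs without B cells. *Maf* was the member with the smallest p. It had 47.0, 59.6 and 76.1 in *muMt*-/- TAMs and 36.6, 40.7 and 47.3 in *muMt*-/- TAMs with GABA, where 5 of 6 libraries were below the lowest library without GABA. The log2 fold change was −0.52 (−0.85 to −0.19, adjusted p = 0.278). With DESeq2 the adjusted p was 0.0293. *Irf8* had 97.5, 116 and 198 in GABA-treated mice, with a log2 fold change of −0.25 (−0.57 to 0.08). The value of 198 came from replicate 1, the library that stood apart, and without it the log2 fold change was −0.39, and that of *Cebpa* −0.13. *Mitf* had 5.82, 6.52 and 9.37, with −0.41 (−1.04 to 0.22; −0.16 without *muMt*-/- replicate 3), and *Cebpb* had 61.5, 74.1 and 99.7, with −0.23 (−0.58 to 0.11). *Spi1* had 25.2, 36.3 and 43.9, with −0.21 (−0.58 to 0.16), and *Cebpa* had 3.98, 12.4 and 17.5, with −0.28 (−0.80 to 0.25). *Csf1r* had 81.0, 147 and 169, and its log2 fold change of 0.0035 (−0.34 to 0.35) was the nearest to 0 of the 8 and changed its sign with the scaling. *Nr1h3* had 7 molecules, with 0.16 (−1.45 to 1.77). By edgeR 0 of 8 members were called, beside 2 of 9469 genes (0.0211%). At an unadjusted p under 0.05 there was 1 of 8 members and 8.46% of all genes. DESeq2 called *Maf* alone among the members and 6.05% of the genes with an adjusted p. The members' median log2 fold change was −0.24, against 0.06 over all genes.

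The third comparison, of GABA-treated *muMt*-/- with WT mice, shares its groups with the other 2. *Spi1* was lower in all 6 GABA libraries than the WT mean, and 3 of them were below the lowest WT library (log2 fold change −0.43, −0.78 to −0.09, adjusted p = 0.579). *Cebpa* was at −0.46 (−0.94 to 0.02), with 4 of 6 libraries below the lowest WT library. *Maf* was at −0.28 (−0.60 to 0.04), and 4 of its 6 libraries were below every WT library. *Csf1r* was at −0.16 (−0.49 to 0.18), and at −0.051 without GABA replicate 1. *Irf8* was at 0.26 (−0.06 to 0.58) and at 0.11 without GABA replicate 1. *Cebpb* was at 0.15 (−0.19 to 0.49) and at 0.049 without GABA replicate 5. *Nr1h3*, with 7 molecules against 9 in WT, was at −0.04 (−1.41 to 1.33), whereas its mean normalized number was 1.09 in WT and 1.17 with GABA. *Mitf* was at 0.51 (−0.14 to 1.16), with 5 of 6 libraries above the highest WT library. Again edgeR called 0 of 8 members, beside 7 of 9469 genes (0.0739%), and 1 was at an unadjusted p under 0.05, beside 7.02% of all genes. DESeq2 called 0 members and 0.612% of the genes with an adjusted p. The members' median log2 fold change was −0.10, against 0.02 over all genes.

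**Figure D2:**
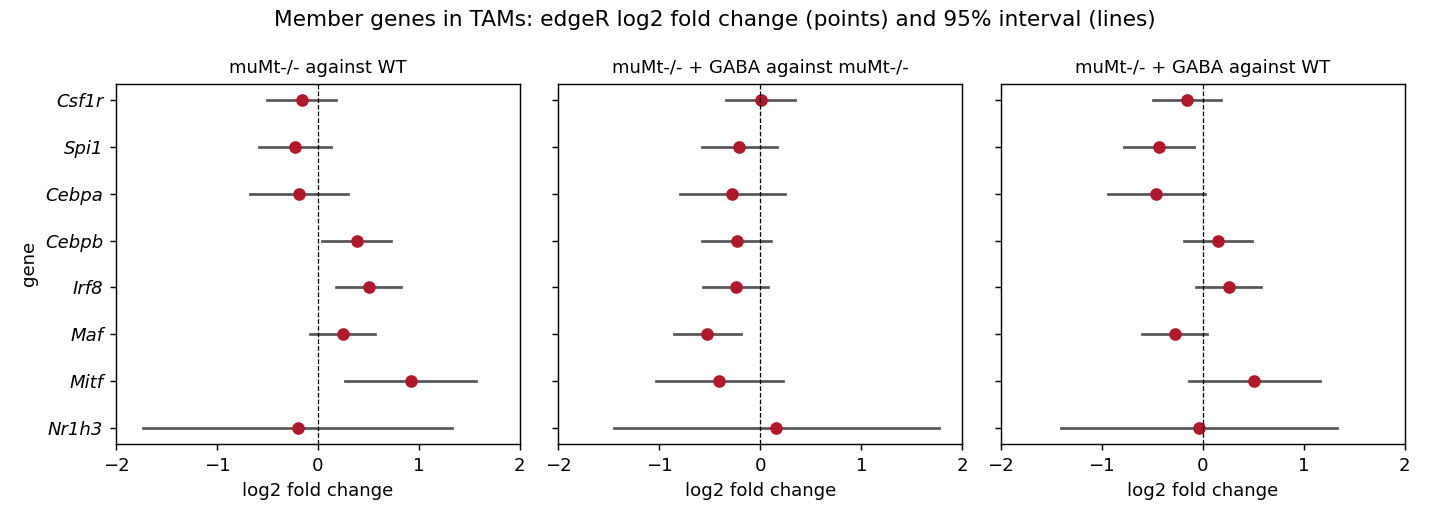
Log2 fold change from edgeR (points) with its 95% interval (lines) for 8 member genes (y axis) in 3 comparisons of TAMs. The intervals of *Irf8*, *Cebpb* and *Mitf* lay right of 0 between *muMt*-/- and WT mice. That of *Maf* lay left of 0 between GABA-treated and other *muMt*-/- mice, and that of *Spi1* between GABA-treated and WT mice. Adjusted p-values stayed above the threshold for all.

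Genes downstream of these regulators were read from lists of known targets, beside the regulators themselves. Between *muMt*-/- and WT TAMs, edgeR called 1 of 14 PU.1 targets as higher, *Itgam* (log2 fold change 0.66, adjusted p = 0.0277), and the list's median was 0.13. At an unadjusted p under 0.05 there were 6 of the 14, beside 14.9% of all genes. The call of *Itgam* was lost in 7 of 18 fits that each left out 1 library. The most abundant of them, *Ctss* and *Il1b*, had mean normalized numbers of 704 and 205 over the TAM libraries and were not called by edgeR, whereas DESeq2 called *Il1b*. *Itgam* marks the sort gate as well. Of 11 C/EBP targets, 6 were tested and edgeR called 3, 2 as higher and 1 as lower. The list's median was 0.27, and 5 of the 6 had an unadjusted p under 0.05, beside 14.9% of all genes. Among these, *Ptgs2*, which encodes cyclooxygenase 2, rose by 0.90 (adjusted p = 0.0218), and lysozyme, *Lyz2*, fell by 0.74 on the log2 scale (adjusted p = 0.024). The calls of *Ptgs2* and *Lyz2* were lost in 3 and 4 of 18 fits that each left out 1 library. *Cebpb* itself was at 0.38 and *Cebpa* at −0.18 in this comparison.

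Of 8 targets of MAF factors, 4 were tested and 2 fell, the complement genes *C1qb* (from 419 ± 49.1 to 278 ± 42.2, log2 fold change −0.62, adjusted p = 0.0414) and *C1qc* (from 404 ± 53.0 to 276 ± 42.6, −0.57, adjusted p = 0.0483). The list's median was −0.57, and 0 of the 4 had a positive value, whereas *Maf* was at 0.25. Both calls were near the threshold and were lost in 11 and 12 of 18 fits that each left out 1 library, and with the replicate number as a block. Of 14 IRF8 targets, 12 were tested, and *Klf4*, a factor of monocyte fate, rose (1.08, adjusted p = 0.00349). The most abundant IRF8 targets, *Ctsc* and *Cst3*, had means of 623 and 278 and were not called. EdgeR called 0 genes among 10 tested LXR targets, led by *Apoe* and *Scd2* (means of 400 and 46.4), 7 PPAR targets, led by *Fabp5* and *Plin2* (38.7 and 30.3), or 6 targets of MITF and TFE factors, led by *Sqstm1* and *Clcn7* (23.5 and 15.3). At an unadjusted p under 0.05 these 3 lists had 4, 2 and 0 genes, DESeq2 called 1 (*Mertk*), 1 (*Fabp5*) and 0 of them, and their medians were −0.13, −0.22 and −0.35.

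Among 23 genes of CSF1R ligands, related receptors and signalling, 20 were tested and *Csf2rb*, the common β chain of the receptors for GM-CSF, IL-3 and IL-5, rose (0.71, adjusted p = 0.0318). *Tyrobp* and *Lyn* were the most abundant, with means of 176 and 89.9, and were not called. Of 38 other macrophage transcription factors, 35 were tested and 4 rose: *Klf4*, *Zeb2* (1.09, adjusted p = 0.00349), *Bhlhe40* (1.19, adjusted p = 0.00597) and *Hif1a* (0.69, adjusted p = 0.0343). With 1 library left out, *Csf2rb* and *Hif1a* each lost the call in 8 of 18 fits. The list's median was 0.30, against −0.05 over all genes. Its most abundant gene, *Klf6*, had a mean of 185 and was not called by edgeR, whereas DESeq2 called it. With the depth of the library as a covariate, 14 of the 17 list and marker genes called in TAMs lost the call, and *Bhlhe40* and *Neat1* were among those that kept it. Over all genes the number called fell from 194 to 11 of 9469. In the TAM comparisons that involve the GABA pellet edgeR called 0 genes of these 9 lists. Of the PU.1 targets, 7 of 14 had an unadjusted p under 0.05 between GABA-treated and other *muMt*-/- TAMs, beside 8.46% of all genes, and DESeq2 called 3, beside 6.05% of the genes with an adjusted p: *Cybb*, *Il1b* and *Msr1*. It called 1 each of the C/EBP, IRF8 (*Cybb*), CSF1R (*Csf2rb*) and other transcription factor (*Klf6*) lists there.

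Markers of other cells were summed in the same TAM groups. Of 6 monocyte markers, *Ccr2*, *Fn1* and *Plac8* were higher in *muMt*-/- TAMs (log2 fold changes 0.84, 0.69 and 0.90). All 3 calls were lost with the depth covariate (0.41, 0.77 and 1.10), and those of *Plac8* and *Ccr2* in 12 and 1 of 18 fits that each left out 1 library. The list summed to 2487 to 2877 CPM in WT libraries, 3411 to 5124 in *muMt*-/- libraries and 3025 to 3922 with GABA. Between GABA-treated and other *muMt*-/- TAMs, DESeq2 called *Ccr2* and *Fn1*, and edgeR called 0 of the 6. *Fn1* was the most abundant, and none of the 6 was at 0. Among the macrophage markers *Trem2* fell as well (−1.11, adjusted p = 0.00828), and their sum was 15761 to 20566 in WT, 13263 to 16941 in *muMt*-/- and 9298 to 18477 in GABA-treated libraries. The 9298 came from GABA replicate 1, which also had the lowest *Csf1r*, *Spi1* and *Cebpa* of its group. The nuclear RNAs *Malat1* and *Neat1* rose by 0.82 and 1.22 on the log2 scale. With GABA against without it they were at −0.66 and −0.70, called by DESeq2 and not by edgeR, and the 3 nuclear RNAs summed to 3175 to 3879 CPM in WT, 4688 to 10474 in *muMt*-/- and 3487 to 5327 in GABA-treated TAMs. Dendritic cell markers summed to 3.99 to 13.2 CPM in WT and 7.89 to 76.5 in *muMt*-/- TAMs, where *Zbtb46* and *Cd209a* were at 0 and *Ccr7* was the most abundant. Neutrophil markers summed to at most 164 and mast cell and NK cell markers to at most 16.1 in any TAM library. Tumour and stroma markers, led by *Col3a1*, reached 4950 in 1 WT library. The part of these RNAs in the values of *Irf8*, *Cebpb*, *Mitf* and *Maf* was not tested.

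Over the 18 TAM libraries, *Csf1r* followed *H3f3a* (Pearson r = 0.92), *Csk* and *Rnf166* most closely, among 5306 other genes with a mean of at least 5. The genes nearest to *Spi1* were *Abhd12* (r = 0.85), *Fkbp8* and *Lasp1*, and those nearest to *Cebpa* were *Brk1* (r = 0.81), *Arrdc1* and *Setd5*. *Cebpb* was nearest to *Ifi205* (r = 0.86), *Ifi211* and *Id2*, *Irf8* to *Rap2c* (r = 0.84), *Basp1* and *Laptm5*, *Maf* to *Rrbp1* (r = 0.81), *Taok3* and *Cyfip1*, and *Mitf* to *Mycbp2* (r = 0.735), *Ankhd1* and *Luc7l2*. Among the members themselves the highest of 21 coefficients was that of *Spi1* with *Csf1r* (r = 0.61), then *Cebpb* with *Maf* and with *Irf8* (both r = 0.57). The lowest was that of *Cebpa* with *Irf8* (r = −0.43). *Cebpa* and *Cebpb* had r = 0.01. These coefficients describe log2 values that share libraries, depth and group differences, and no p was computed.

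TAMs were then set against CD8+ T cells of WT mice, in CPM. *Csf1r* had 697 to 882 in TAMs and 0 to 155 in CD8+ T cells, where 4 of 6 libraries were at 0 and replicate 5 gave 8 of the 9 molecules. The log2 difference was 4.86 ± 0.52 (SE; adjusted p = 5.1e-11). *Spi1* had 182 to 311 in TAMs and 3 molecules in CD8+ T cells, all in replicate 5 (4.71 ± 0.57, adjusted p = 1.7e-09). Without that library WT CD8+ T cells held 1 molecule of *Csf1r* (log2 difference 7.43) and 0 of *Spi1*, which leaves no bounded fold for *Spi1*. *Cebpa* differed by 3.73 ± 0.62 (adjusted p = 2.8e-06), *Cebpb* by 3.33 ± 0.52 (adjusted p = 8.1e-07) and *Maf* by 2.67 ± 0.36 (adjusted p = 2.7e-08). Without WT CD8+ replicate 6, which held 8 of the 12 *Cebpb* molecules, *Cebpb* was at 4.40. Every TAM library exceeded every CD8+ library for these 5 genes, and the share of all genes separated in this way is not given. *Irf8* gave the smallest of the called differences. It had 471 to 698 CPM in TAMs and 262 to 442 in CD8+ T cells, ranges that came close without overlap, with a log2 difference of 0.92 ± 0.23 (adjusted p = 0.0016). *Irf8* is also expressed in lymphocytes, and here its mean in CD8+ T cells was 64.4% of that in TAMs, beside 18.8% for *Maf*, 9.18% for *Cebpb*, 5.91% for *Cebpa*, 3.69% for *Spi1* and 3.43% for *Csf1r*. The summed macrophage markers in these T cell libraries were at 3.58% of their TAM level.

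Of the 9 members, 7 were tested in this fit of all 36 libraries, and 6 were called, all higher in TAMs. Over all genes 22.7% were called and 16.8% were called as higher in TAMs. *Mitf* missed the threshold (log2 difference 2.01 ± 0.77, adjusted p = 0.0513) with 2 molecules in 6 CD8+ libraries, and passed it in 5 of 36 fits that each left out 1 library. *Nr1h3* and *Pparg* did not pass the filter. Their CD8+ libraries held 0 and 1 molecules in 1154683, and 0 allows up to 2.6 CPM. The median over all tested genes was 0.36 with TMM and 0.20 under the size factors of DESeq2. Under those factors *Irf8* was at 0.75 (adjusted p = 0.0109). With depth as a covariate, which differs between the cell types, 3 members were called (*Csf1r*, *Spi1* and *Maf*), and the call of *Irf8* was lost (0.84, adjusted p = 0.437), as were those of *Cebpa* (2.95, adjusted p = 0.115) and *Cebpb* (3.01, adjusted p = 0.0699). Over all genes that fit called 412 of 8477, against 1928 without the covariate.

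In the CD8+ libraries of *muMt*-/- mice, *Csf1r* had 3 to 31 molecules in every library, against 0 in 4 of 6 WT libraries. Its normalized number had a median of 5.55 (3.36 to 31.4), and the log2 fold change was 2.30 ± 0.74 (SE; adjusted p = 0.378). *Cebpb* had 0, 1.62 and 6.01 in WT and 3.36, 7.88 and 28.3 in *muMt*-/- libraries (2.02 ± 0.68, adjusted p = 0.466). *Spi1* had 3 molecules in WT and 20 in *muMt*-/- libraries (2.04 ± 0.93, adjusted p = 0.735). *Irf8* had 14.4, 21.9 and 25.5 in WT and 22.9, 31.1 and 42.6 in *muMt*-/- libraries, with 4 of 6 above the highest WT library (0.63 ± 0.26, adjusted p = 0.686). *Maf* did not follow them, with medians of 2.82 and 2.25 and a log2 fold change of −0.20 ± 0.61. In GABA-treated *muMt*-/- mice *Irf8* had 25.4, 32.1 and 69.3, with 5 of 6 libraries above the highest WT library (0.96 ± 0.25 against WT, adjusted p = 0.458). Without replicate 1, which gave the 69.3, it was 0.64. Against WT, *Cebpb* was at 1.99 ± 0.68, *Csf1r* at 1.90 ± 0.75, *Spi1* at 1.80 ± 0.93 and *Maf* at 0.10 ± 0.58, a value that was below 0 with DESeq2's size factors. Between GABA-treated and other *muMt*-/- mice, *Irf8* was at 0.33 (0.05 without GABA replicate 1), *Maf* at 0.30, *Cebpb* at −0.03, *Spi1* at −0.24 and *Csf1r* at −0.40.

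In CD8+ T cells 5 members were tested, and 0 were called by edgeR in any of the 3 comparisons, where 0% of 6663 genes were called. *Cebpa* (10 molecules in 18 libraries), *Mitf* (8), *Pparg* and *Nr1h3* did not pass the filter. *Spi1* passed it only through the *muMt*-/- groups. Its mean normalized number was 0.57 in WT, 2.93 in *muMt*-/- and 2.33 in GABA-treated libraries. Its place in the following counts therefore depends in part on the filter. At an unadjusted p under 0.05 there were 4 of 5 members between *muMt*-/- and WT mice (6.17% of all genes), 0 with the pellet against without it (3.71%) and 3 between GABA-treated and WT mice (6.89%). DESeq2 called 0 members in each, and 0%, 0% and 0.0150% of genes. Without a filter, 2 members (*Csf1r* and *Cebpb*) were called between *muMt*-/- and WT mice and 3 with GABA against WT (these and *Irf8*), beside 72 and 64 of 13109 genes. Without WT replicate 5, *Csf1r* alone was called (log2 fold change 4.70, adjusted p = 0.0300), over 1 molecule left in WT, and it was at 4.32 with GABA against WT. *Spi1* had 0 molecules left in WT, so that no fold is given. Without WT replicate 6 *Cebpb* was at 3.003 and 2.925 in these comparisons. Without *muMt*-/- replicate 1 *Csf1r* was at 1.60 between *muMt*-/- and WT mice (adjusted p = 0.960). With depth as a covariate *Csf1r*, *Spi1*, *Cebpb* and *Irf8* were at 1.939, 1.531, 1.498 and 0.379 between *muMt*-/- and WT mice and at 1.305, 0.941, 1.051 and 0.565 with GABA against WT, and *Maf* was at −0.57 and −0.49. The median over all genes in the 3 comparisons was 0.15, 0.03 and 0.21 with TMM, and 0.06, −0.02 and 0.06 under size factors.

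Macrophage markers were summed in the same CD8+ libraries. The 16 macrophage markers summed to 186 to 2029 CPM in WT CD8+ libraries (median 401), 948 to 6565 in *muMt*-/- libraries (median 1521) and 348 to 3465 with GABA (median 2162). *Ctss* was the most abundant in each group, *Adgre1*, *Mertk* and *Mrc1* were at 0 in the 6 WT libraries, and 0 markers were at 0 in the other 2 groups. Of the 16, 13 were tested between *muMt*-/- and WT CD8+ T cells, 0 were called, 10 had an unadjusted p under 0.05, DESeq2 called 0, and their median log2 fold change was 2.23. The library with the highest marker sum in each of the WT and *muMt*-/- groups, WT replicate 5 and *muMt*-/- replicate 1, was also the highest for *Csf1r* (155 and 488 CPM) and *Spi1* (58.0 and 110). *Cebpb* was highest in that *muMt*-/- library (441 CPM), but among WT libraries in replicate 6 (104 CPM, marker sum 494), with 38.7 in replicate 5. The 2 GABA-treated libraries with the lowest marker sums, replicates 5 (348) and 4 (556), had 0 and 2 molecules of *Csf1r* and 0 of *Spi1*. *Spi1* was also at 0 in GABA-treated replicate 6, with a marker sum of 2196 CPM. *Irf8* had 667 and 678 CPM in replicates 5 and 4, and 385 to 744 across the *muMt*-/- libraries. The sort on TCRβ and CD8 selects T cells, and T cell markers summed to 2188 to 7253 in the 18 libraries. Monocyte markers, of which *Ly6c2* was the most abundant, summed to 1231 to 2513 CPM in WT CD8+ libraries, 1978 to 4817 in *muMt*-/- libraries and 1806 to 4193 with GABA. The 4193 came from replicate 1, which had the highest *Irf8* of all CD8+ libraries and the lowest T cell marker sum of its group (2418). The *muMt*-/- replicate 1, with 4817 and 2188 for these markers, had 520 CPM of *Irf8*, inside the range of its group. The part of macrophage or monocyte RNA in the values of *Csf1r*, *Spi1*, *Cebpb* and *Irf8* was not tested. In *muMt*-/- mice the mean in CD8+ T cells was 22.6% of that in TAMs for *Csf1r*, 22.2% for *Spi1*, 36% for *Cebpb*, 68.2% for *Irf8* and 13.1% for *Maf*, beside 16.0% for the macrophage markers. With GABA the same shares were 16.1%, 20.4%, 39.4%, 96.0% and 22.2%, beside 13.1% for the macrophage markers.

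**Figure D3:**
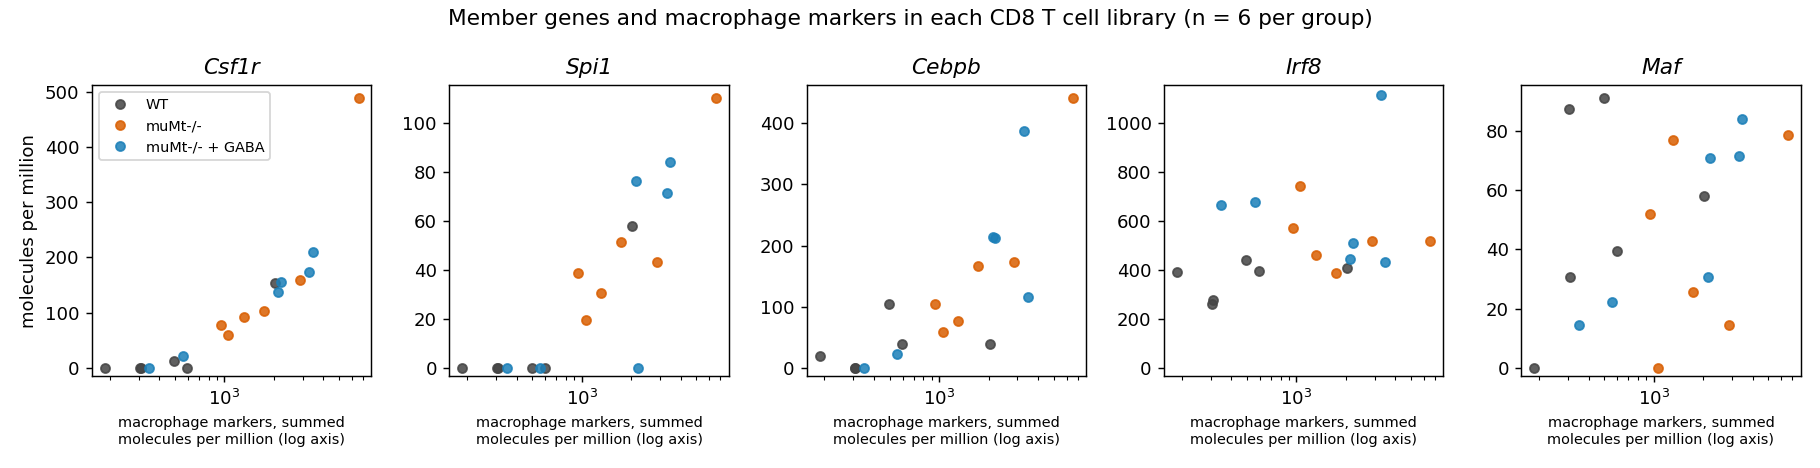
CPM of 5 member genes (y axes) against the summed CPM of 16 macrophage markers (x axis, logarithmic) in each CD8+ T cell library (points, n = 6 per group). *Csf1r* was at 0 to 488 and was highest in the library with the highest marker sum, and *Irf8* lay between 262 and 1112 in every library.

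Whether the response to the lack of B cells differed between the cell types was tested as an interaction over all 36 libraries. The difference, TAM minus CD8+, was −2.51 on the log2 scale for *Csf1r* (adjusted p = 0.217), −2.37 for *Spi1* (adjusted p = 0.337) and −1.67 for *Cebpb* (adjusted p = 0.395). It was −0.14 for *Irf8*, which turned positive with DESeq2's size factors, 0.43 for *Maf*, 0.22 for *Cebpa* and 1.32 for *Mitf*. The part of the macrophage RNA in the T cell libraries in these differences was not tested. Of 7 members tested, edgeR called 0, beside 1 of 8477 genes (0.0118%). At an unadjusted p under 0.05 there were 3, beside 10.1% of all genes, and the median of all genes was −0.30 with TMM and −0.11 with size factors. DESeq2 called *Csf1r* (adjusted p = 0.0419) and 4.14% of the genes with an adjusted p. Without WT CD8+ replicate 5 edgeR called it too (−5.12, adjusted p = 0.0134), over 1 molecule left in WT CD8+ T cells. That library held all 3 *Spi1* molecules of the group, so that the value of *Spi1* rests on it. Without WT CD8+ replicate 6 *Cebpb* was at −2.74, and leaving out 1 library moved *Mitf* between 0.64 and 1.94. Without *muMt*-/- CD8+ replicate 1, *Csf1r* was at −1.79 and *Cebpb* at −1.13. For the response to GABA the difference ranged from −1.49 (*Cebpa*) to 0.37 (*Csf1r*), with −1.09 for *Mitf*, −0.86 for *Maf*, −0.60 for *Irf8*, −0.23 for *Cebpb* and 0.0019 for *Spi1*. With 1 library left out, *Cebpa* lay between −2.13 and −0.87 and *Mitf* between −1.69 and −0.50. EdgeR called 0 of 7 members, beside 0% of genes, and *Irf8* alone had an unadjusted p under 0.05, beside 4.53% of genes. Its difference was −0.34 without CD8+ GABA replicate 1 and −0.75 without TAM GABA replicate 1. DESeq2 called 0 members and 0% of genes.

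Promoters are shown for *Irf8* and *Cebpb*, chosen after their values were seen, since 5 of their 6 *muMt*-/- TAM libraries lay above WT, and for *Cebpa*, the less abundant paralogue of *Cebpb*. *Mitf* had 5 such libraries as well, but has 3 promoters here, and gene counts do not tell which was used. They are not printed; 2 held TTGCNNAA and the third TGACGTCA and TATAAA. RefSeq promoters (GRCm38.p6, 250 bases before to 50 after a start) were found for 6 of the 9 members, 12 promoters in all. Motifs were searched on both strands: GAGGAAGT (PU.1, in 3.20% of 32851 promoters), TTGCNNAA (C/EBP, 10.8%), TGACGTCA (cAMP response element, 1.79%) and its core TGACG (20.8%), which the whole element contains, TTCNNNGAA (interferon-γ-activated site, 8.30%), GAAANNGAA (interferon response repeat, 8.56%), TGANTCA (AP-1, 7.81%), CACGTG (E-box, 7.15%) and TATAAA (the box of the core promoter, 13.6%). Capitals mark the matches in the sequences. The *Irf8* promoter, at chr8:120736108-120736407 on the plus strand, held TTCNNNGAA at bases 80 and 98 and TATAAA at base 220 (position −31 from the start), counted from the first base printed. The second *Irf8* promoter in the table held none of the motifs. The *Cebpb* promoter, at chr2:167688665-167688964 on the plus strand, held TGACG at bases 71, 198 and 244 and TATAAA at base 272, after the annotated start (position 21), so that it is not named a box of the core promoter here. The *Cebpa* promoter, at chr7:35119043-35119342 on the plus strand, held TATAAA at base 221 (position −30). A match is a description of these letters and was not tested for binding.
The sequence of the *Irf8* promoter is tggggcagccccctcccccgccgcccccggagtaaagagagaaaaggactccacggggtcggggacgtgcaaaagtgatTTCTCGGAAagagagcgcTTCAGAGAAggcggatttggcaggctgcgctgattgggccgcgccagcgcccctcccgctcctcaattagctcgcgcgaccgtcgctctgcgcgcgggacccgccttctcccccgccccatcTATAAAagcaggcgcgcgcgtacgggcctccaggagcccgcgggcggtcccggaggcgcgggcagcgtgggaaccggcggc.
The sequence of the *Cebpb* promoter is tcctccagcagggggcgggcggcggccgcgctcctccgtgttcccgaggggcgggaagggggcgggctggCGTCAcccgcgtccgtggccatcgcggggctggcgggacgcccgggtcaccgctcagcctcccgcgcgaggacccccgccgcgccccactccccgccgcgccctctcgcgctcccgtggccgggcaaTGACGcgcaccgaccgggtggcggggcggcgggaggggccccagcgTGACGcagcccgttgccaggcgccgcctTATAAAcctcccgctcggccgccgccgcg.
The sequence of the *Cebpa* promoter is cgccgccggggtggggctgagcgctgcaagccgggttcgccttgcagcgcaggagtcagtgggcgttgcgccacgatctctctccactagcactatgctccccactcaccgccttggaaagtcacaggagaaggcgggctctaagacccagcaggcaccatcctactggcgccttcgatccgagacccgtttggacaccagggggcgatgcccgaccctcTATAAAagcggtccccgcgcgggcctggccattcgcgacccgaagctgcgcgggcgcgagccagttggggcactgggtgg.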

How the data were processed

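Digital RNA sequencing of TAMs and CD8+ T cells gave 36 libraries, 6 per group. The counts deposited by the authors are distinct molecules for 24781 gene names, from reads mapped by STAR to mm10 with refFlat, and are not normalized. Spike-ins have no row in this table. Depth was 22896 to 304100 molecules per library, so that genes with few molecules carry large counting error. Rows were matched to the members by gene name. The members and all lists were chosen with earlier results of these data known. Genes with a mean DESeq2-normalized number above 1 in a fit were tested across all genes with edgeR 4.0.16 (quasi-likelihood F-test, TMM, 1 coefficient per group, 18 libraries per cell type or all 36) and Benjamini-Hochberg adjustment at 0.05; 95% intervals were derived from its F statistic. The procedure was tested on simulated data. Alternatives were DESeq2 1.42.0 (size factors in edgeR, or its Wald test), filterByExpr, no filter, a replicate block, depth as a covariate, each library left out and CPM. Named genes were all members, list genes called in TAMs, the 2 most abundant genes of each pathway list, the most abundant gene of each marker list and the 3 genes most correlated with each member. Genes named as called by DESeq2 alone were chosen after their values were seen. Some list genes that meet these rules are not reported here, though counts, sums and medians of lists include them. R 4.3.3 and Python 3.11.15 were used. *Ighm* and the immunoglobulin constant genes were not analysed here.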

Additional observations from a re-analysis of the deposited data

Results flagged for a closer look

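In groups of 6 libraries, 8 values of a tested member lay far from the other 5, out of 39 groups examined. A chance rate of about 1 in 20 would need independent values without an excess of zeros. Several of the 8 share a library, and some groups were mostly at 0, so that this rate does not apply to them. In TAMs, *Cebpb* had a normalized number of 50.1 in *muMt*-/- replicate 5, with the others at 94.2 to 105, and *Irf8* had 198 in GABA-treated replicate 1, with the others at 97.5 to 135. In CD8+ T cells of *muMt*-/- replicate 1, *Csf1r* had 31.4 (others 3.36 to 9.0), *Cebpb* 28.3 (3.36 to 9.91) and *Spi1* 7.08 (1.12 to 3.05). That library also had the highest sum of macrophage markers, 6565 CPM. WT CD8+ replicate 5 had 9.15 for *Csf1r* (others 0 to 0.751) and 3.43 for *Spi1* (others 0), with a marker sum of 2029. *Irf8* had 69.3 in GABA-treated CD8+ replicate 1, with the others at 25.4 to 37.8. Monocyte markers summed to 4193 CPM in that library (others 1806 to 2710) and T cell markers to 2418 (others 3371 to 7245). Yet *muMt*-/- replicate 1, with 4817 and 2188 CPM for these markers, had an *Irf8* of 33.4, inside the range of its group (22.9 to 42.6). The part of macrophage or monocyte RNA in these values was not tested.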

How the results depend on the processing

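Members were called or not called alike in most fits, and the exceptions follow. Where the count of members called was 0, it was 1 with DESeq2's adjusted p for TAMs without B cells against WT, for the pellet in TAMs and for the interaction with B cell loss. With DESeq2's unadjusted p it was 3, 1 and 1 in the TAM comparisons, 2 and 2 for CD8+ T cells against WT, and 3 and 1 for the interactions. It was 1 with filterByExpr for *muMt*-/- against WT TAMs, and without a filter 2 and 3 for CD8+ T cells against WT and 1 for the interaction. Fewer genes tested enter the adjustment of filterByExpr. Leaving out 1 library moved it between 0 and 1 for *muMt*-/- against WT TAMs, for *muMt*-/- against WT CD8+ T cells and for the interaction. The count for TAMs against CD8+ T cells fell from 6 to 3 with the depth covariate, beside a fall from 1928 to 412 of 8477 genes, and the cause was not tested. It was 5 with filterByExpr, which removed *Cebpa*, 7 with DESeq2's unadjusted p, and 7 in 5 of 36 fits that left out 1 library, where *Mitf* passed.

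Replicate numbers did not pair libraries: the deviations of same-numbered libraries correlated at −0.21 to 0.12 in TAMs, −0.39 to 0.45 in CD8+ T cells and −0.06 to 0.41 between them. With the replicate number as a block the counts stayed at 0 and at 6. Group means of members in CPM gave 24 log2 ratios that moved by less than the spread between libraries.

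Signs turned for 18 member values in fits with other settings, none of them called, and for 1 ratio of group means (*Csf1r* for the pellet in TAMs, negative from normalized numbers and 0.0030 in CPM). The 18 hold each value of DESeq2 under its adjusted and its unadjusted p, with the same log2 fold change. *Csf1r* for the pellet in TAMs was −0.025 with size factors, −0.023 with DESeq2, −0.024 with filterByExpr, −0.013 with the block and −0.0051 with depth, and −0.10 to 0.12 with 1 library left out. *Nr1h3* (GABA against WT) was −0.041 in the main fit, 0.069 as a ratio of means in CPM, 0.032 with depth and −0.28 to 0.17 with 1 library left out, or −0.042 to 0.37 for the pellet. *Maf* in CD8+ T cells (GABA against WT) was −0.031, −0.024 and −0.49 with size factors, DESeq2 and depth, and −0.20 to 0.51 with 1 library left out, or −0.50 to 0.24 for *muMt*-/- against WT. The interaction of *Irf8* with B cell loss was 0.067, 0.071 and 0.0051 with size factors, DESeq2 and filterByExpr, and that of *Spi1* with the pellet −0.022, −0.0090 and −0.0096 with no filter, the block and depth. With 1 library left out, the pellet in CD8+ T cells gave −0.66 to 0.12 for *Spi1*, −0.63 to 0.48 for *Cebpb* and −0.71 to 0.30 for *Csf1r*. The interaction with B cell loss gave −0.36 to 0.86 for *Cebpa* and −0.092 to 0.74 for *Maf*, and that with the pellet −0.37 to 0.40 for *Spi1*, −0.74 to 0.36 for *Cebpb* and −0.33 to 0.64 for *Csf1r*. The causes were not tested.

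Among 17 called list genes, 16 of 119 values with other settings and 66 of 306 with 1 library left out lost the call, and 0 turned sign. The depth covariate took the call from 14 of the 17, and over all genes the number called fell from 194 to 11. The number of molecules limits *Nr1h3*, *Pparg* and, in CD8+ T cells, all members but *Irf8*. Intervals for TAMs are narrow enough to leave out a change of 1 on the log2 scale for *Csf1r* and *Spi1*, not for *Mitf* and *Nr1h3*.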
